A study of Mus musculus with 15 samples.

Results

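Collagens, matrix metalloproteinases, their tissue inhibitors and lysyl oxidases were followed through a mouse liver study of diet-induced nonalcoholic steatohepatitis. Members were taken by symbol, as every collagen chain gene (Col, a number, a and a number), every Mmp, Timp1 to Timp4, and Lox with Loxl1 to Loxl4. The rule found 70 of the 17527 genes in the deposited table, namely 42 collagens, 19 metalloproteinases, 4 inhibitors and 5 lysyl oxidases, and used no measured value. A mean of 1 FPKM (fragments per kilobase of gene, scaled to the fragments of the library) over the 15 libraries was reached by 17 members, made up of 11 collagens, Mmp12, Mmp14, Mmp15, Mmp19, Timp2 and Timp3. Col13a1, at a mean of 1.12 FPKM, lay just inside this limit and Col6a2, at 0.929 FPKM, just outside it. Of the 4 genes that mark this set, Col1a1, Col3a1 and Mmp12 passed the limit and Timp1, at a mean of 0.498 FPKM, did not.

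RNA was sequenced from livers in 3 groups with 5 libraries each. BBBPH mice received a fat-rich diet with sugar water for 20 weeks and, after week 12, 150 mg/kg of biotransformed bear bile powder by mouth each day. Model mice received the same diet and water with saline in place of the powder. In that diet 60% of the energy came from fat, 20% from protein and 20% from carbohydrate, with 0.2% cholesterol, and the water held 42 g/L of sugar that was 55% sucrose and 45% fructose. The diet of the control mice, and the strain, sex and age of all mice, are not given in the labels. The BBBPH group is stated to have held 14 mice, of which 5 libraries are analysed here. Nothing states what the library numbers (1_1, 1_4 and so on) mean or that each library is a separate mouse, so p-values measure the spread between these libraries.

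Fibrillar collagens, above all types I and III, form the fibres that build up in a scarring liver, where activated stellate cells and portal fibroblasts are their known main source. Type IV collagen forms the sheet-like network of basement membranes, and types VI and XIV lie on or between the fibres. Matrix metalloproteinases cut collagens, elastin and other matrix proteins, tissue inhibitors of metalloproteinases block them, and lysyl oxidases cross-link collagen chains so that the fibres resist cutting. Bulk liver RNA cannot tell fewer cells of a type from less RNA per cell.

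Depth, read back from the FPKM values, was 35395712 to 39624160 fragments per library, so that 1 fragment in a gene of 1 kilobase stood for 0.0252 to 0.0283 FPKM. Hepatocyte genes dominated every library, and 10 hepatocyte markers summed to 69043 to 78540.2 FPKM in BBBPH libraries, 43607 to 68503 in model libraries and 73355 to 81909 in control libraries. Single libraries stood apart. Exocrine pancreas markers summed to 4214 FPKM in BBBPH 2_2 and to at most 21.4 FPKM in model and control libraries, skeletal muscle markers to 438 FPKM in control 2_1 and to at most 1.88 FPKM in BBBPH and model libraries, and hepatocyte markers were lowest in model 1_4. Summed cholangiocyte markers ran from 21.9 to 33.7 FPKM in BBBPH, from 24.9 to 255 (model 1_4) in model and from 23.5 to 26.6 in control libraries. Nearly all of this was Spp1, which is also on the lists of lipid-associated macrophages and of non-collagen matrix and reached 252 FPKM in model libraries, while the other 5 markers together came to at most 5.78 FPKM in any library. Smooth muscle and mesothelium markers summed to 2.25 to 7.03 FPKM in BBBPH, 2.60 to 4.76 in model and 3.15 to 7.68 in control libraries. Without BBBPH 2_2, control 2_1 and model 1_4, the counts of called members given below became 12 (model against control), 12 (BBBPH against model) and 3 (BBBPH against control). The share of all genes called in that fit is not given, so these counts are no result about the members.

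The start regions of Mmp12 and of some of the collagen genes that were called are shown, among them Col4a1 and Col4a2, which share theirs. All of these genes are described with their values in what follows. Promoter windows of 300 bases, 250 before and 50 after the annotated start, were available for 53 of the 70 members and for 14 of the 17 that reached 1 FPKM (all but Col1a1, Col14a1 and Mmp19), from RefSeq on GRCm38.p6. The RefSeq window of Col1a2 lies inside the GENCODE span given for that gene. Capitals mark TATAAA (the letters of the TATA box), CCAAT (the letters of the CCAAT box, read ATTGG on the other strand) and TGANTCA (the letters bound by AP-1 factors), searched on both strands. No marked match overlaps another. Each is written along its gene's own strand.
Col1a2, chr6:4505368-4505667, plus strand: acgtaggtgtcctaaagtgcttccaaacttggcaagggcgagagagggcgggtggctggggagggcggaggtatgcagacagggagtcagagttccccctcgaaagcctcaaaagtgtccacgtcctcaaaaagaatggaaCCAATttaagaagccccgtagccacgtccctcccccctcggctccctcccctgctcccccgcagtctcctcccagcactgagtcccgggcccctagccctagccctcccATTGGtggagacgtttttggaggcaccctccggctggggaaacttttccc
Col3a1, chr1:45311288-45311587, plus strand: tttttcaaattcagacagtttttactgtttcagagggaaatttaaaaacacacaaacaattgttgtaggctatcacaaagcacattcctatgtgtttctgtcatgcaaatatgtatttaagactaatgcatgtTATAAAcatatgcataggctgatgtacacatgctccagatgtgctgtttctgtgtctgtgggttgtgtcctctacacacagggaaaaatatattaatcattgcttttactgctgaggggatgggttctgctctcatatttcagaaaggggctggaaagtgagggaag
Col4a1, chr8:11312777-11313076, minus strand: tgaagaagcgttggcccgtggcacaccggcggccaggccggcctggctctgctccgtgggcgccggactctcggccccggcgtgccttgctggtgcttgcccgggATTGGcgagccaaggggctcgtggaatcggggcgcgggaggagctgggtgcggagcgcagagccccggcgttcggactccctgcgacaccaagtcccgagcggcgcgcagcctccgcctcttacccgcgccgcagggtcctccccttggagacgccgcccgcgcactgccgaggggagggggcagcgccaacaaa
Col4a2, chr8:11312555-11312854, plus strand: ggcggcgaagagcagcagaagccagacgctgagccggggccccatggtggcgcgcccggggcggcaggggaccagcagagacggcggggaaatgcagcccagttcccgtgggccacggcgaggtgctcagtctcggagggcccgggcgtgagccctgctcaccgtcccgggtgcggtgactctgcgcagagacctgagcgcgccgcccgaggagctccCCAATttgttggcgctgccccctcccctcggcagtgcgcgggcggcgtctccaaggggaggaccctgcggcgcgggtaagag
Mmp12, chr9:7347124-7347423, plus strand: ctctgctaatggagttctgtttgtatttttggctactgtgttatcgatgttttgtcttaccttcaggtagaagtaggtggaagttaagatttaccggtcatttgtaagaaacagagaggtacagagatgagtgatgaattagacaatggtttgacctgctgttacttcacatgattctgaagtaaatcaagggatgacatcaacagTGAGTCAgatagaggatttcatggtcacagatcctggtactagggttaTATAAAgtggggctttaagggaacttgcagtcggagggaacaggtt
Among all 32817 windows of the RefSeq table, 37.4% held CCAAT, 13.6% held TATAAA and 7.81% held TGANTCA. Mmp12 has a pair of windows in the table, and the one printed was chosen after its matches were seen, since the other holds none of these letters. Windows of the called collagens Col5a3, Col6a1, Col13a1 and Col27a1 are not printed. Of these, Col27a1 holds none of the letters, Col13a1 holds TATAAA, Col5a3 CCAAT and Col6a1 TGANTCA. The starts of Col4a1, on the minus strand, and Col4a2, on the plus strand, lie 21 bases apart on chromosome 8, so that their windows share 78 bases read in opposite directions. A match is a description of the letters and no measured binding site.

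Levels spanned a wide range. Col18a1, a collagen of the basement membrane zone whose end fragment is endostatin, was the most abundant member at 106 ± 4.36 FPKM in BBBPH, 116 ± 5.43 in model and 107 ± 10.8 in control libraries (SD, n = 5 each). Because FPKM are per length, levels can be compared between genes: Mmp19, Mmp14, Mmp15, Timp3, Col14a1 and Timp2 had means of 15.1, 12.5, 10, 9.96, 9.21 and 6.32 FPKM over all libraries. Their order differed between groups, since Mmp14 had the highest mean of these under BBBPH (13.9 FPKM), and in the model Col14a1 (12.7), Col4a1 (9.65) and Col3a1 (9.23) lay above Mmp15 (7.55). At the other end, 29 members stayed below a mean of 0.1 FPKM and Col9a1 was listed at 0 in every library. Summed over their members, fibrillar collagens came to 10.8 FPKM in BBBPH, 22.0 in model and 10.9 in control libraries. Basement membrane and network collagens summed to 9.40, 15.3 and 6.31 FPKM in the same order of groups, and secreted metalloproteinases to 16.1, 28.6 and 13.5 FPKM. Membrane-bound metalloproteinases, of which Mmp14 and Mmp15 made up nearly the whole sum, came to 27.0 FPKM in BBBPH, 20.9 in model and 21.6 in control libraries.

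**Figure D1:**
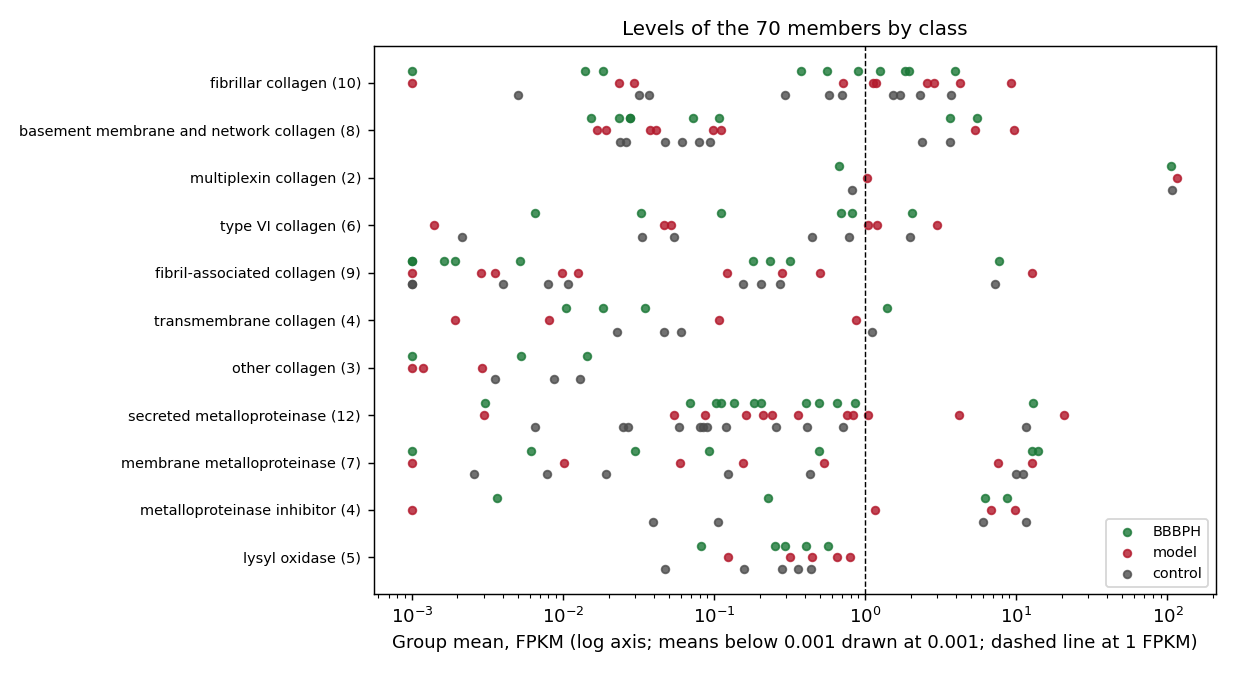
Mean FPKM of each member, on a log axis, by group and class of protein, with the dashed line at 1 FPKM and the lowest means drawn at the left edge. Col18a1 lies above all other members at 106 to 116 FPKM in the 3 groups, and the fibrillar collagens with a mean above 0.1 FPKM lie highest in model libraries except for Col27a1.

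Which matrix genes the diet changed was asked by comparing model with control libraries. Of the 17 members tested, 10 were higher in model libraries and Col27a1 was lower, at an adjusted p under 0.05 (limma on log2(FPKM + 1), 9575 genes). Over all genes tested, 38.6% were called, 29.9% as higher and 8.64% as lower. The members' median log2 fold change was 0.62, against 0.12 over all genes tested. Median-ratio scaling moved the median of all genes to -0.01 and that of the members to 0.52, and the called members to 10 higher and 4 lower. The libraries of both groups did not overlap for all 11 called members, a separation in the higher direction that 18.8% of all genes tested had and in the lower direction 5.07%. Mmp12 and Col1a1 passed the limit of 1 FPKM only through the model group, so the count and median over members that passed are no support for a difference of the set.

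Whether the powder changed these genes under the diet was asked by comparing BBBPH with model libraries. Here 10 of the 17 members were lower and Mmp15, Col27a1 and Col13a1 were higher (limma, adjusted p under 0.05), against 26.5% of all genes tested, 12.2% as lower and 14.2% as higher. The median log2 fold change was -0.45 over the members and 0.02 over all genes tested. Libraries of the 2 groups did not overlap for 6 members that were lower (7.9% of all genes tested) and for Col13a1, which was higher (9.11%). Mmp12 and Col1a1, both lower under BBBPH, passed the limit of 1 FPKM only through the model group. The count and median over members that passed are no support for a difference of the set here either. Both comparisons use the same 5 model libraries, so a high or low model library moves them in opposite directions.

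**Figure D2:**
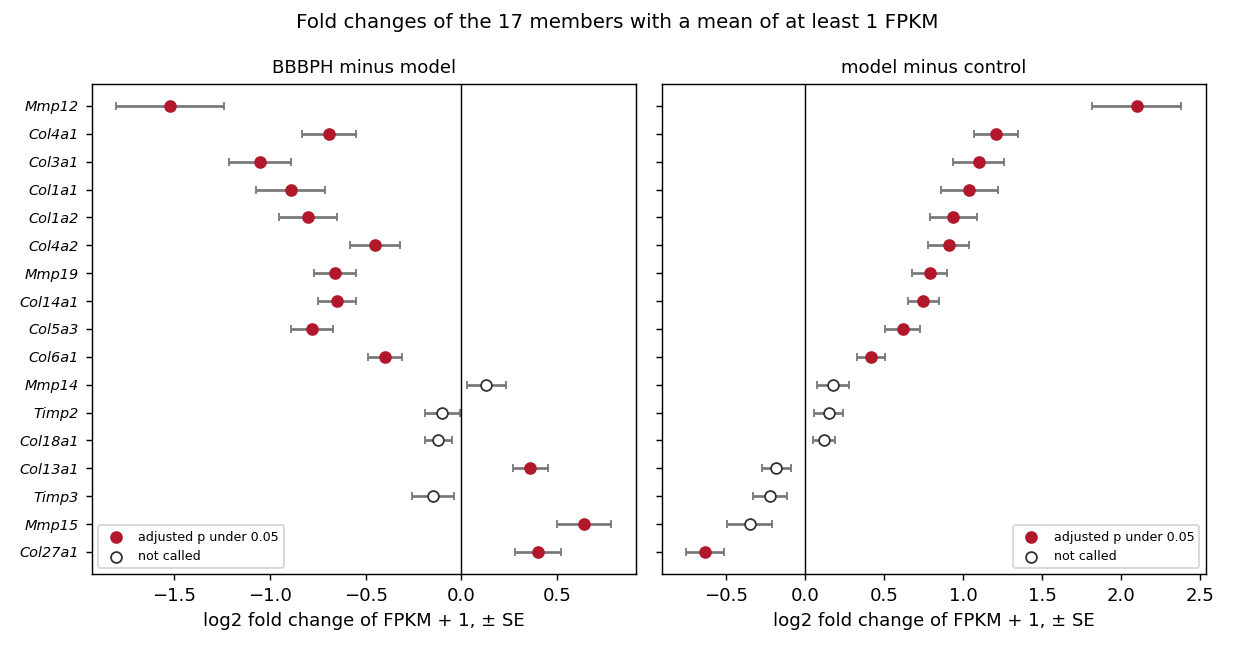
Log2 fold change of FPKM + 1 with its SE for the 17 members that reached a mean of 1 FPKM, BBBPH minus model on the left and model minus control on the right, with calls at an adjusted p under 0.05 filled. Mmp12 has the largest fitted change on both sides, -1.52 and 2.10, and both sides use the same model libraries.

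Fibrillar collagen genes were among the members that differed most. Types I and III rose in the model and were lower under BBBPH, where their levels overlapped those of control libraries. Values below are in order of library number (BBBPH 2_1, 2_2, 3_1, 3_2, 3_4; model 1_1, 1_4, 2_1, 2_3, 3_4; control 1_1, 1_5, 2_1, 2_2, 3_4). Col3a1, the single chain of type III collagen (chromosome 1, 45311538 to 45349706, plus strand), stood at 3.17, 5.14, 4.05, 4.65 and 2.64 FPKM in BBBPH libraries, 8.43, 10.2, 11, 10.7 and 5.91 FPKM in model libraries and 3.79, 3.88, 4.09, 3.10 and 3.61 FPKM in control libraries. Every model library lay above every library of both other groups, and model 3_4 was the lowest of its group. The log2 fold change of Col3a1 was 1.10 ± 0.16 (SE) for model against control (limma, adjusted p = 0.000104) and -1.05 ± 0.16 for BBBPH against model (limma, adjusted p = 0.000215).

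Type I collagen is built from the products of Col1a1 (chromosome 11, 94936224 to 94953042) and Col1a2 (chromosome 6, 4504814 to 4541544), both on the plus strand. Col1a1 measured 0.847, 1.33, 0.748, 1.06 and 0.460 FPKM under BBBPH, 2.13, 3.65, 2.76, 3.03 and 1.25 FPKM in the model, and 0.635, 0.464, 1.24, 0.582 and 0.581 FPKM in controls. Model libraries lay above all control libraries by a narrow margin, since control 2_1 nearly reached model 3_4, and model 3_4 lay below BBBPH 2_2. The Col1a1 values rest on 992 fragments in the BBBPH, 2809 in the model and 754 in the control group. The ratio of group means was 3.66 for model over control and 0.347 for BBBPH over model, with log2 fold changes of 1.04 ± 0.18 (limma, adjusted p = 0.000427) and -0.89 ± 0.18 (limma, adjusted p = 0.00184).

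Col1a2 read 1.95, 2.34, 1.89, 2.31 and 1.34 FPKM in BBBPH libraries, 3.43, 5.73, 4.75, 4.72 and 2.65 FPKM in model libraries and 1.33, 1.68, 2.29, 1.31 and 1.85 FPKM in control libraries. All 5 model libraries lay above the other 10, again with model 3_4 lowest and model 1_4 highest. The fitted change on the log2 scale was 0.94 ± 0.15 in the model against control (limma, adjusted p = 0.000306) and -0.80 ± 0.15 under BBBPH against the model (limma, adjusted p = 0.00141). Within each library the FPKM of Col1a1 was 0.440 ± 0.0834 of that of Col1a2 under BBBPH, 0.591 ± 0.0697 in the model and 0.411 ± 0.112 in controls (SD, n = 5 each), and the ranges of the 3 groups overlapped.

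Col5a3 encodes a chain of type V collagen, which joins type I fibres (chromosome 9, 20770050 to 20815067, minus strand). It stood at 1.04, 0.991, 1.46, 1.61 and 1.14 FPKM in BBBPH, 3.22, 3.13, 2.45, 2.47 and 2.97 FPKM in model and 1.65, 0.963, 1.86, 1.33 and 1.78 FPKM in control libraries. Model libraries were again clear of all others, but here model 1_1 was highest and model 3_4 was not low. The log2 fold change was 0.62 ± 0.11 for model against control (limma, adjusted p = 0.000611) and -0.78 ± 0.11 for BBBPH against model (limma, adjusted p = 0.000161). The other type V chains were below the limit of 1 FPKM and were tested only in a fit with no filter (17051 genes, of which 24.1% were called for model against control and 15.8% for BBBPH against model). Col5a1 averaged 0.555 ± 0.0748 FPKM in BBBPH, 1.17 ± 0.234 in model and 0.571 ± 0.143 in control libraries (SD, n = 5 each), and its log2 fold changes of 0.46 and -0.47 were called (limma with no filter, adjusted p = 0.000753 and 0.000932). Col5a2, whose gene lies 24614 bases from Col3a1 on the other strand, averaged 0.377 ± 0.0730, 0.71 ± 0.200 and 0.292 ± 0.0673 FPKM in the same order of groups. It was called at log2 fold changes of 0.40 and -0.31 (limma with no filter, adjusted p = 0.00142 and 0.00988).

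Col27a1, a fibrillar collagen known mainly from cartilage, went the other way (chromosome 4, 63214004 to 63334991, plus strand). BBBPH libraries gave 1.21, 1.52, 2.36, 2.32 and 1.77 FPKM, model libraries 1.27, 0.873, 1.20, 1.15 and 1.12 FPKM and control libraries 2.68, 1.89, 2.78, 2.31 and 1.88 FPKM. All model libraries lay below all control libraries, while BBBPH 2_1 fell within the model range. On the log2 scale the change was -0.63 ± 0.12 for model against control (limma, adjusted p = 0.000769) and 0.40 ± 0.12 for BBBPH against model (limma, adjusted p = 0.0194). The second call was lost without BBBPH 3_1 or BBBPH 3_2 (limma, adjusted p = 0.0522 and 0.0535).

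**Figure D3:**
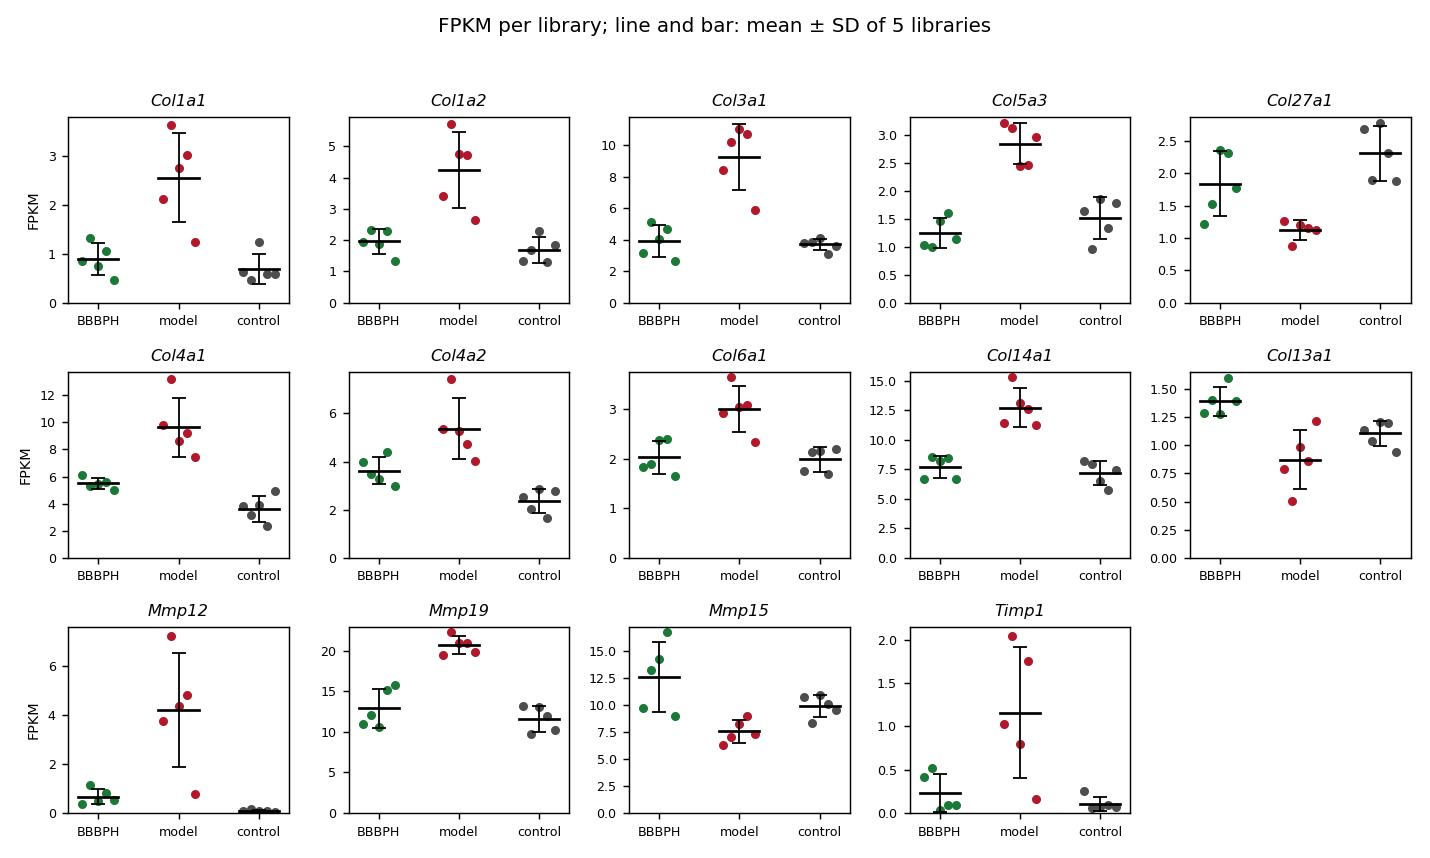
FPKM of the 14 members described library by library, with the mean and SD of 5 libraries per group. Model libraries lie above control libraries without overlap for Col1a1, Col1a2, Col3a1, Col4a1, Col4a2, Col5a3, Col6a1, Col14a1, Mmp12 and Mmp19, and below them for Col27a1.

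Markers of stellate cells and fibroblasts were counted beside the fibrillar collagens. Of 16 markers, 13 were tested, and 9 were higher in model than control libraries, while 1 was higher and 2 were lower under BBBPH than in the model (limma, adjusted p under 0.05). Against control, 6 were higher under BBBPH, and the medians over the list were 0.37, -0.11 and 0.32 on the log2 scale in these 3 comparisons. Over all genes tested, 29.9% were higher in model than control libraries, 14.2% higher and 12.2% lower under BBBPH than in the model, and 24.4% higher under BBBPH than in control libraries, so the marker counts for BBBPH against model lie near the background. Their summed level was 164 to 176 FPKM in BBBPH, 171 to 210.5 FPKM in model and 136 to 158 FPKM in control libraries, and none of them was at 0 in all libraries. The summed fibrillar collagens were 8.10 to 13.0 FPKM in BBBPH, 15.3 to 26.0 FPKM in model and 9.27 to 13.3 FPKM in control libraries. Collagen sums of BBBPH libraries thus overlapped those of controls, whereas their marker sums lay above all controls. These are sums of unscaled FPKM. For BBBPH against control the median log2 fold change over all genes tested was 0.13, and -0.01 after median-ratio scaling. Whether the marker sums stay apart after that scaling was not tested. Most of the marker sum was Dcn, at means of 109.8 FPKM in BBBPH, 132 in model and 97.1 in control libraries. Dcn was not called for BBBPH against control (limma, adjusted p = 0.108). The part of stellate cells and fibroblasts in the collagen differences was not tested. Endothelial markers, 12 of 12 tested, had 4 higher and 1 lower in model than control libraries, near the 29.9% and 8.64% of all genes tested. They summed to 237 to 246 FPKM in BBBPH, 180.4 to 252 in model and 203 to 234 in control libraries.

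**Figure D4:**
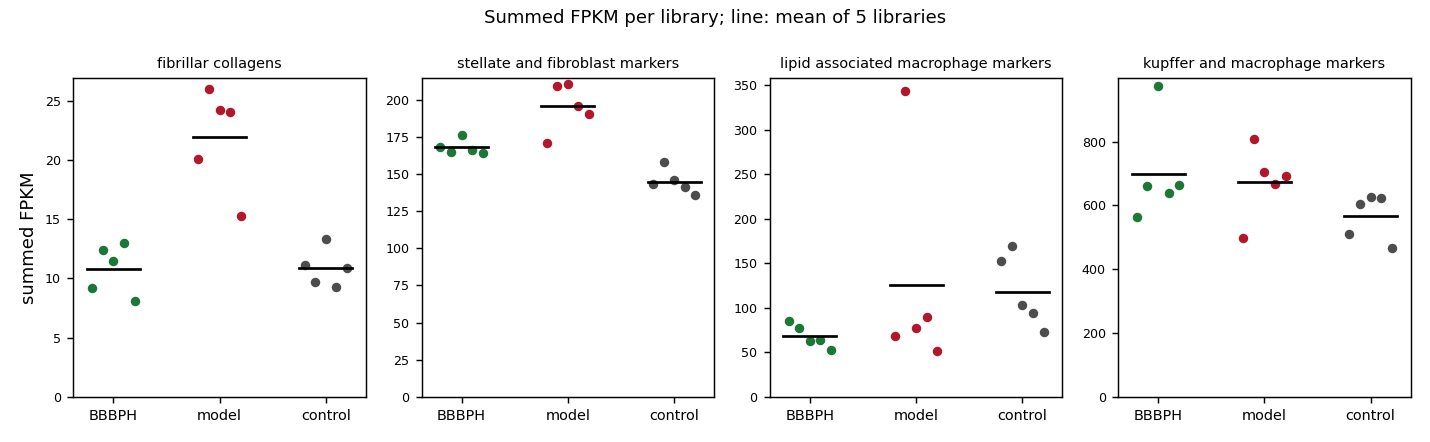
Summed FPKM per library of fibrillar collagens and of markers of stellate cells and fibroblasts, lipid-associated macrophages, and Kupffer cells and macrophages, with the group mean as a line. BBBPH libraries overlap control libraries for summed collagens (8.10 to 13.0 FPKM) and lie above them for stellate and fibroblast markers (164 to 176 FPKM), and model 1_4 stands alone at 343 FPKM of lipid-associated macrophage markers. Dcn makes up most of the stellate and fibroblast sum. Sums are of unscaled FPKM, and their order after median-ratio scaling was not tested.

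Basement membrane collagen IV rose in the model, and its levels under BBBPH lay between those of model and control libraries. Col4a1 and Col4a2 encode the chains that most basement membranes contain, and their gene models overlap by 22 bases at their starts (chromosome 8, 11198423 to 11312826 on the minus strand and 11312805 to 11449287 on the plus strand). Col4a1 was measured at 6.13, 5.30, 5.44, 5.60 and 5.02 FPKM in BBBPH, 9.79, 13.2, 8.66, 9.19 and 7.41 FPKM in model and 3.82, 3.15, 3.88, 2.33 and 4.92 FPKM in control libraries. The 3 groups did not overlap at all, with BBBPH between model and control. Its log2 fold change was 1.21 ± 0.14 for model against control (limma, adjusted p = 2.45e-05), -0.69 ± 0.14 for BBBPH against model (limma, adjusted p = 0.00232) and 0.52 ± 0.14 for BBBPH against control (limma, adjusted p = 0.0154). The call for BBBPH against control ended with median-ratio scaling (limma, adjusted p = 0.105) and with the whole library number as a block (0.12).

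Col4a2 followed with 3.99, 3.49, 3.26, 4.39 and 3.0 FPKM in BBBPH, 5.36, 7.44, 5.25, 4.74 and 4.02 FPKM in model and 2.51, 2.02, 2.85, 1.64 and 2.76 FPKM in control libraries. Control libraries lay below all others, and only BBBPH 3_2 reached into the model range, above model 3_4. The log2 fold change was 0.91 ± 0.13 for model against control (limma, adjusted p = 0.000136), -0.45 ± 0.13 for BBBPH against model (limma, adjusted p = 0.023) and 0.47 ± 0.13 for BBBPH against control (limma, adjusted p = 0.0183). Leaving out model 1_4, BBBPH 3_1 or BBBPH 3_4 ended the BBBPH-against-model call (limma, adjusted p = 0.0547, 0.0512 and 0.0553), and leaving out BBBPH 3_2 ended that against control (limma, adjusted p = 0.0518). The Col4a2 call against control also ended with median-ratio scaling (limma, adjusted p = 0.106) and with the whole library number as a block (0.119). Col4a1 exceeded Col4a2 by a factor of 1.53 ± 0.162 in BBBPH, 1.81 ± 0.105 in model and 1.53 ± 0.162 in control libraries (SD, n = 5 each), with ranges that overlapped. The remaining 6 genes of this class, among them Col4a3 to Col4a6, stayed at means of at most 0.104 FPKM.

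Among collagens outside the fibrillar and type IV classes, Col14a1, which encodes a collagen on the surface of type I fibres (chromosome 15, 55307750 to 55520803, plus strand), stood at 6.72, 8.54, 8.18, 8.50 and 6.68 FPKM in BBBPH, 11.4, 15.3, 13.1, 12.6 and 11.3 FPKM in model and 8.21, 7.93, 6.54, 5.78 and 7.44 FPKM in control libraries. Model libraries lay above the other 10, which overlapped each other. Col14a1 changed by 0.75 ± 0.10 in the model against control on the log2 scale (limma, adjusted p = 7.75e-05) and by -0.65 ± 0.10 under BBBPH against the model (limma, adjusted p = 0.000327).

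Col6a1, a chain of the beaded type VI filaments (chromosome 10, 76708792 to 76726168, minus strand), gave 1.83, 1.90, 2.37, 2.39 and 1.65 FPKM in BBBPH, 2.92, 3.65, 3.04, 3.07 and 2.34 FPKM in model and 1.74, 2.13, 2.16, 1.69 and 2.20 FPKM in control libraries. All model libraries lay above all control libraries, and model 3_4 fell just below the highest BBBPH libraries. The log2 fold change was 0.42 ± 0.09 for model against control (limma, adjusted p = 0.00301) and -0.40 ± 0.09 for BBBPH against model (limma, adjusted p = 0.00576). Its partner chains lay below 1 FPKM. Col6a2 averaged 0.821 ± 0.162 FPKM in BBBPH, 1.19 ± 0.304 in model and 0.777 ± 0.119 in control libraries, and Col6a3 averaged 0.692 ± 0.109, 1.05 ± 0.201 and 0.443 ± 0.130 FPKM (SD, n = 5 each). Col6a3 was called in both comparisons with no filter (limma, adjusted p = 0.000563 and 0.0307) and Col6a2 in model against control alone (limma, adjusted p = 0.033; 0.0733 for BBBPH against model). The Col6a3 call for BBBPH against model ended in 7 of the 15 fits with a library left out (adjusted p up to 0.0714) and the Col6a2 call in 6 (up to 0.0841).

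Col13a1, a collagen held in the cell membrane (chromosome 10, 61838236 to 61979108, minus strand), was called for BBBPH against model. It read 1.29, 1.40, 1.28, 1.60 and 1.39 FPKM in BBBPH, 0.787, 0.509, 0.983, 0.863 and 1.22 FPKM in model and 1.14, 1.04, 1.21, 1.20 and 0.943 FPKM in control libraries. BBBPH libraries lay above all libraries of both other groups, which overlapped. The log2 fold change was 0.36 ± 0.09 for BBBPH against model (limma, adjusted p = 0.00717), -0.18 ± 0.09 for model against control (limma, adjusted p = 0.125) and 0.19 ± 0.09 for BBBPH against control (limma, adjusted p = 0.129). Col18a1 was not called in any comparison, with a log2 fold change of 0.12 for model against control (95% interval -0.03 to 0.27, limma, adjusted p = 0.203) and of -0.12 for BBBPH against model (-0.27 to 0.03, adjusted p = 0.231). Col15a1, the other gene of the endostatin-like family, averaged 0.674 ± 0.225 FPKM in BBBPH, 1.02 ± 0.484 in model and 0.822 ± 0.262 in control libraries and was not called (limma with no filter, adjusted p = 0.573 for model against control and 0.294 for BBBPH against model). Col16a1, of the class that lies on fibres, averaged 0.317 ± 0.0580, 0.501 ± 0.136 and 0.272 ± 0.0411 FPKM in the same order. It was called in both comparisons (limma with no filter, adjusted p = 0.00478 and 0.0254), the second of which ended without BBBPH 2_1, 2_2 or 3_2 (up to 0.0593).

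Mmp12, the elastase of macrophages, showed the widest difference of all members. Its gene (chromosome 9, 7344381 to 7369499, plus strand) lies in a row of 7 members between bases 7272514 and 7699585 of that chromosome, with Mmp13, Mmp3, Mmp10, Mmp8, Mmp27 and Mmp7. Mmp12 measured 0.360, 1.12, 0.465, 0.811 and 0.508 FPKM in BBBPH libraries, 3.75, 7.25, 4.39, 4.82 and 0.789 FPKM in model libraries and 0.0954, 0.159, 0.0733, 0.0572 and 0.0374 FPKM in control libraries. The other 4 model libraries stood far above model 3_4, which lay within the BBBPH range, and all control libraries lay below all others. Fragments summed to 464 in the BBBPH, 2932 in the model and 58 in the control group.

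The ratio of Mmp12 group means was 49.7 for model over control, 0.155 for BBBPH over model and 7.72 for BBBPH over control. On the log2(FPKM + 1) scale, which understates changes of low genes, the fold change was 2.10 ± 0.28 for model against control (limma, adjusted p = 6.78e-05) and -1.52 ± 0.28 for BBBPH against model (limma, adjusted p = 0.0012). Against control, BBBPH libraries did not overlap with control libraries, yet the fold change of 0.59 ± 0.28 was not called (limma, adjusted p = 0.13). It was called with a pseudocount of 0.1 (limma, adjusted p = 0.00534), in a fit of these 2 groups alone (0.00529) and without model 3_4 (0.00803). It was not called with no filter (limma, adjusted p = 0.213). Nor was it called in voom on recovered fragments (log2 fold change 2.92 ± 1.34, adjusted p = 0.123).

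Markers of lipid-associated macrophages, cells that accumulate in fatty liver, were counted beside Mmp12. Mmp12 is on that list, and without it 7 of 9 markers were tested, of which 4 were higher and 1 was lower in model than control libraries, and 3 were lower under BBBPH than in the model (limma, adjusted p under 0.05, medians 0.88 and -0.73 on the log2 scale). Their summed level was 52.7 to 85.1 FPKM in BBBPH, 51.7 (model 3_4) to 343 (model 1_4) FPKM in model and 72.7 to 169.7 FPKM in control libraries, and none was at 0 in all libraries. Spp1 and Fabp5 carried most of these sums. Spp1 averaged 22.6 FPKM in BBBPH, 72.2 in model and 21.7 in control libraries, and Fabp5, the marker that was lower, averaged 16.6 FPKM in BBBPH, 13.4 in model and 73.3 in control libraries (log2 fold change -2.52 for model against control, limma, adjusted p = 0.000949). The markers that were higher in model than control libraries were Trem2, Gpnmb, Cd63 and Lpl, with log2 fold changes of 0.88, 1.44, 1.09 and 0.70. Trem2, Gpnmb and Lpl were lower under BBBPH than in the model, by log2 fold changes of -0.73, -0.84 and -1.10. General Kupffer cell and macrophage markers, 12 of 12 tested, had 1 higher in model than control libraries and 2 higher under BBBPH than in the model. They summed to 564 to 973, 499 to 807 and 468 to 626 FPKM in BBBPH, model and control libraries. Over all genes tested, 29.9% were higher and 8.64% lower in model than control libraries. For BBBPH against model these shares were 14.2% and 12.2%. The Kupffer cell counts lie below or near these shares. Of the model libraries, model 1_4 was highest and model 3_4 lowest for both Mmp12 and the lipid-associated marker sum. The part of these cells in the Mmp12 difference was not tested.

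Mmp19, a widely expressed secreted protease of basement membrane proteins, had the highest mean of the metalloproteinases over all libraries, although Mmp14 lay above it in the BBBPH mean (chromosome 10, 128790910 to 128800824, plus strand). It stood at 11, 12.0, 10.6, 15.1 and 15.8 FPKM in BBBPH, 19.5, 22.3, 20.9, 20.9 and 19.8 FPKM in model and 13.2, 9.72, 13.0, 11.9 and 10.2 FPKM in control libraries. Model libraries formed a tight group above all others, and model 3_4 did not stand out in it. The log2 fold change was 0.79 ± 0.11 for model against control (limma, adjusted p = 7.90e-05) and -0.66 ± 0.11 for BBBPH against model (limma, adjusted p = 0.000497). Exons of Tmem198b on the other strand overlap its exons by 789 bases, and since no strand setting is stated, reads of both genes cannot be told apart there.

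Mmp13, the main collagenase of mice, averaged 0.0687 ± 0.0395 FPKM in BBBPH, 0.752 ± 0.688 in model and 0.0268 ± 0.0138 in control libraries (SD, n = 5 each), on 35, 372 and 13 fragments. Model libraries ran from 0.0309 FPKM in model 3_4 to 1.90 FPKM in model 1_4, so the lowest of them lay within the range of both other groups. Its log2 fold change was 0.69 for model against control (limma with no filter, adjusted p = 0.0143) and -0.63 for BBBPH against model (limma with no filter, adjusted p = 0.031). The second call ended in 7 of the 15 fits with a library left out (adjusted p up to 0.0643) and in voom on recovered fragments (adjusted p = 0.0753). Mmp27 and Mmp2, a gelatinase that Mmp14 activates, averaged 0.491 and 0.856 FPKM in BBBPH, 0.827 and 1.05 FPKM in model and 0.412 and 0.714 FPKM in control libraries. Neither was called (limma with no filter, adjusted p = 0.151 and 0.166 for model against control, 0.315 and 0.502 for BBBPH against model).

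Mmp15, a membrane-bound metalloproteinase, was called higher under BBBPH than in the model. It (chromosome 8, 95352268 to 95375080, plus strand) read 9.71, 13.2, 14.2, 16.7 and 8.92 FPKM in BBBPH libraries, 6.25, 7.01, 8.20, 8.99 and 7.32 FPKM in model libraries and 10.7, 8.28, 10.9, 10.1 and 9.49 FPKM in control libraries. BBBPH 3_2 was highest, only BBBPH 3_4 dipped just below the top model library, and model and control libraries overlapped. Its log2 fold change was 0.64 ± 0.14 for BBBPH against model (limma, adjusted p = 0.0037). For model against control it was -0.35 ± 0.14 (limma, adjusted p = 0.0583), which was called in 5 of the 15 fits with a library left out, with median-ratio scaling (0.00628) and in a fit of these 2 groups alone (0.0157).

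Mmp14, the membrane protease that activates Mmp2, averaged 13.9 ± 1.55 FPKM in BBBPH, 12.6 ± 1.65 in model and 11.1 ± 1.68 in control libraries (SD, n = 5 each). It was not called for model against control (log2 fold change 0.18, 95% interval -0.04 to 0.40, limma, adjusted p = 0.189) or BBBPH against model (0.13, -0.09 to 0.35, adjusted p = 0.394). For BBBPH against control its log2 fold change was 0.30 (limma, adjusted p = 0.0399), a call that ended in 7 of the 15 fits with a library left out (adjusted p up to 0.0931) and with median-ratio scaling (0.468). Mmp23, bound to the membrane by its other end, averaged 0.497 FPKM in BBBPH, 0.531 in model and 0.432 in control libraries and was not called (limma with no filter, adjusted p = 0.61 for model against control and 0.901 for BBBPH against model).

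Tissue inhibitors differed among themselves. Timp1, the inhibitor known to be induced in injured liver (chromosome X, 20870166 to 20874735, plus strand), was measured at 0.413, 0.519, 0.0309, 0.0893 and 0.0855 FPKM in BBBPH, 1.03, 2.05, 0.797, 1.76 and 0.155 FPKM in model and 0.250, 0.0615, 0.0624, 0.0913 and 0.0638 FPKM in control libraries. The other 4 model libraries lay above all libraries of both other groups, while model 3_4 lay within their ranges. These levels rest on 38 fragments in the BBBPH, 190 in the model and 17 in the control group. Its log2 fold change was 0.89 for model against control (limma with no filter, adjusted p = 0.00818) and -0.75 for BBBPH against model (limma with no filter, adjusted p = 0.0278). With voom on recovered fragments these were 3.06 ± 0.90 (adjusted p = 0.0151) and -2.45 ± 0.80 (adjusted p = 0.0365). The BBBPH-against-model call with no filter ended in 6 of the 15 fits with a library left out (adjusted p up to 0.0684), namely without BBBPH 3_1, 3_2 or 3_4 or model 1_1, 1_4 or 2_3.

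Timp3, the inhibitor that binds to the matrix, averaged 8.63 ± 0.441 FPKM in BBBPH, 9.74 ± 1.72 in model and 11.5 ± 1.96 in control libraries (SD, n = 5 each). Its log2 fold change was -0.22 for model against control (limma, adjusted p = 0.132), -0.15 for BBBPH against model (limma, adjusted p = 0.359) and -0.36 for BBBPH against control (limma, adjusted p = 0.0245), the last of which ended in 5 of the 15 fits with a library left out (up to 0.0648). Its exons overlap those of Syn3 on the other strand by 1733 bases, and without a stated strand setting reads of both cannot be told apart. Timp2, which takes part in the activation of Mmp2, averaged 6.24 ± 0.688 FPKM in BBBPH, 6.75 ± 0.867 in model and 5.98 ± 0.712 in control libraries. It was not called, with a log2 fold change of 0.15 for model against control (95% interval -0.05 to 0.35, limma, adjusted p = 0.21) and -0.10 for BBBPH against model (-0.29 to 0.10, adjusted p = 0.471). Timp4 was near 0, at a mean of 0.0143 FPKM.

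None of the lysyl oxidases reached 1 FPKM. Loxl2, which cross-links type IV and fibrillar collagen, averaged 0.292 ± 0.107 FPKM in BBBPH, 0.795 ± 0.246 in model and 0.281 ± 0.105 in control libraries (SD, n = 5 each). Of the model libraries only model 3_4, at 0.409 FPKM, reached into the ranges of the other groups. Its log2 fold changes of 0.48 and -0.47 were called (limma with no filter, adjusted p = 0.00223 and 0.00382) and remained called in each of the 15 fits with a library left out. Loxl1, known for its part in elastic fibres, averaged 0.564 ± 0.159, 0.653 ± 0.194 and 0.440 ± 0.0623 FPKM in the same order and was not called (limma with no filter, adjusted p = 0.11 for model against control and 0.6 for BBBPH against model).

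**Figure D5:**
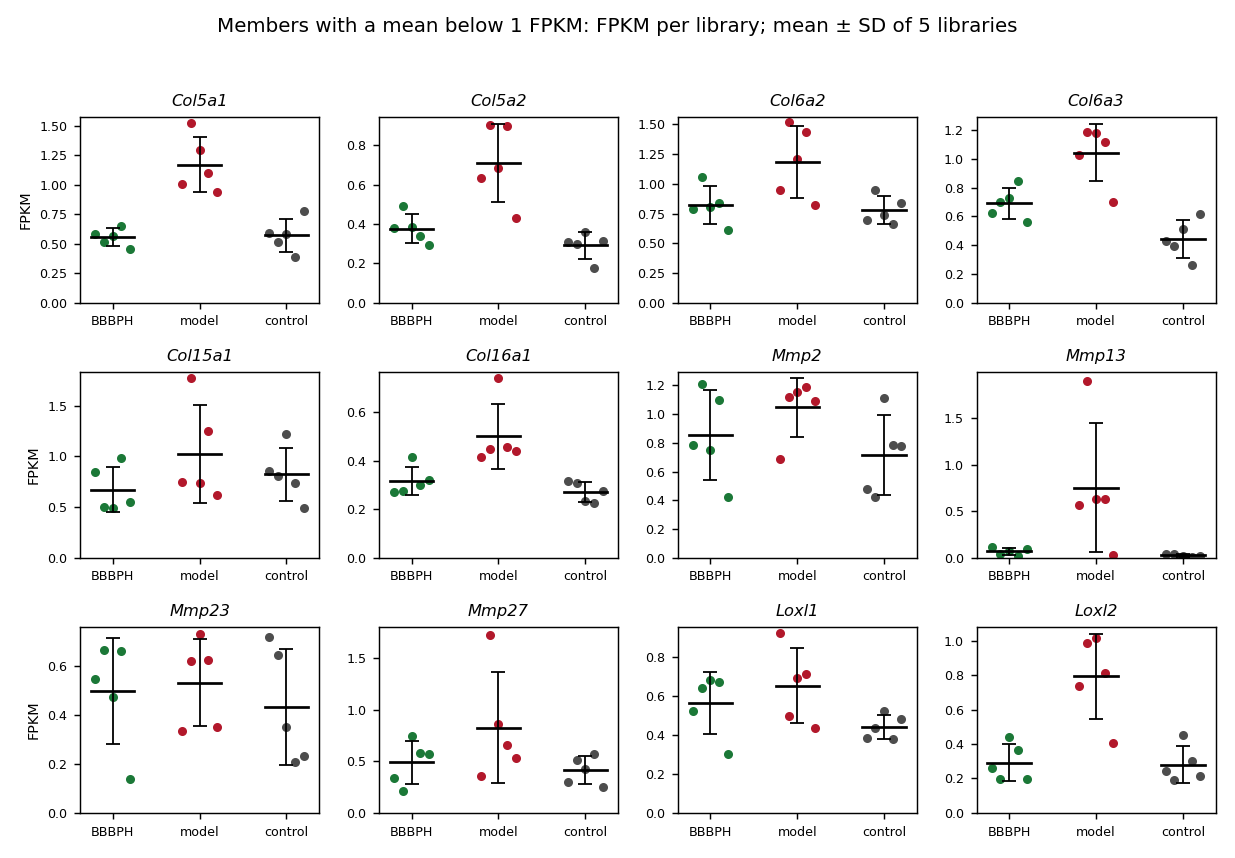
FPKM per library of 12 members with a mean below 1 FPKM and a group mean of at least 0.5 FPKM, with the mean and SD of 5 libraries per group. Model libraries lie above control libraries without overlap for Col5a1, Col5a2, Col6a3 and Col16a1, and Mmp13 is near 0 in BBBPH and control libraries, at means of 0.0687 and 0.0268 FPKM.

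The other 40 members had no group mean of 0.5 FPKM and are given by family. They were 25 collagens with means of at most 0.206 FPKM, 11 metalloproteinases from 0.0026 to 0.340 FPKM, Timp4, and Lox, Loxl3 and Loxl4 from 0.0842 to 0.402 FPKM. In the fit with no filter, which took 69 members, 20 were higher and 4 lower in model than control libraries (19.2% and 4.98% of all genes), and 4 were higher and 18 lower under BBBPH than in the model (8.05% and 7.76%). A filter at 0.3 FPKM called 18 of 31 members for model against control (36.3% of all genes), and voom on recovered fragments at a mean of 10 fragments called 22 of 47 for model against control (33.3%) and 21 of 47 for BBBPH against model (22.8%). Of these 40, picked after their values were seen, Loxl4 averaged 0.253 FPKM in BBBPH, 0.317 in model and 0.158 in control libraries and was called for model against control (limma with no filter, adjusted p = 0.011). Mmp17, a membrane-bound metalloproteinase, averaged 0.0918 FPKM in BBBPH, 0.155 in model and 0.123 in control libraries and was lower under BBBPH than in the model (limma with no filter, adjusted p = 0.0337). Its BBBPH and model libraries overlapped, and voom on recovered fragments did not call it (adjusted p = 0.0635). Col4a3, a chain of the kidney and lung basement membranes, averaged 0.0278, 0.0193 and 0.0609 FPKM and was lower in model than control libraries (limma with no filter, adjusted p = 0.00513), though its exons overlap an antisense gene by 563 bases.

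How far BBBPH libraries stood from control libraries was asked directly. Of the 17 members, Col4a1, Col4a2 and Mmp14 were higher and Timp3 was lower (limma, adjusted p under 0.05), against 28.1% of all genes tested, 24.4% as higher and 3.7% as lower. The members' median log2 fold change was 0.14, beside 0.13 over all genes. Median-ratio scaling moved these to -0.02 and -0.01 and ended the calls of Col4a1 (limma, adjusted p = 0.105), Col4a2 (0.106) and Mmp14 (0.468), and 2 members were then lower, Timp3 and Col27a1 (-0.35, limma adjusted p = 0.037). Types I and III were not called: the log2 fold change was 0.15 for Col1a1 (95% interval -0.23 to 0.53), 0.14 for Col1a2 (-0.19 to 0.47) and 0.05 for Col3a1 (-0.28 to 0.38). Libraries did not overlap for Col4a1, Col4a2, Mmp12 and Col13a1, all higher under BBBPH, as for 15.3% of all genes tested.

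Genes that process and surround collagen were counted from lists of the same pathway. Their counts are read against the share of all genes tested, 29.9% higher and 8.64% lower in model than control libraries and 14.2% higher and 12.2% lower under BBBPH than in the model, with medians of 0.12 and 0.02. Among genes of collagen maturation, 14 of 24 were tested, of which 3 were higher in model than control libraries, with 2 higher and 2 lower under BBBPH than in the model (limma, adjusted p under 0.05; median log2 fold changes 0.13 and -0.05), which is near or below those shares. Serpinh1, the chaperone of procollagen, averaged 7.06 ± 0.693 FPKM in BBBPH, 14.8 ± 1.78 in model and 7.19 ± 1.11 in control libraries (SD, n = 5 each), with log2 fold changes of 0.95 for model against control (limma, adjusted p = 1.05e-05) and -0.97 for BBBPH against model (limma, adjusted p = 1.40e-05). P4ha1, a catalytic subunit of the prolyl hydroxylase that stabilizes collagen, behaved differently. It averaged 2.74 ± 0.546 FPKM in BBBPH, 10.6 ± 3.23 in model and 9.07 ± 0.648 in control libraries, was not called for model against control (limma, adjusted p = 0.466) and was lower under BBBPH than in both other groups (log2 fold change -1.60 and -1.44, limma, adjusted p = 1.22e-05 and 8.91e-05). P4ha2, its sister subunit, averaged 2.70 FPKM in BBBPH, 3.50 in model and 2.13 in control libraries and was called for model against control alone (limma, adjusted p = 0.0013; 0.0531 for BBBPH against model).

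Matrix proteins other than collagens had 21 of 37 tested, of which 9 were higher in model than control libraries and 7 lower under BBBPH than in the model (medians 0.27 and -0.14). The small proteoglycan Bgn, the collagen-binding Sparc and the fibre-associated Postn averaged 55.0, 27.6 and 3.41 FPKM in BBBPH, 69.1, 35.1 and 5.35 FPKM in model and 52.9, 20.7 and 3.03 FPKM in control libraries. All were called in both comparisons (limma, adjusted p from 0.000142 to 0.0326). Other proteases and the plasmin system had 13 of 25 tested, 6 higher in the model against control and 4 lower under BBBPH against the model (medians 0.25 and -0.21). Among them Plau, the urokinase that activates plasmin, averaged 0.896 FPKM in BBBPH, 1.82 in model and 0.605 in control libraries, Ctsd 226, 262 and 210.2 FPKM and Adam17 4.38, 5.54 and 4.50 FPKM, each called in both comparisons (limma, adjusted p from 0.000259 to 0.0263).

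Signalling genes of the TGF-beta and PDGF pathways had 13 of 24 tested, with 2 higher and 2 lower in both comparisons (medians 0.03 and -0.12). Pdgfc and the receptor Pdgfrb, which is also among the stellate cell markers, averaged 1.23 and 1.35 FPKM in BBBPH, 1.57 and 1.68 FPKM in model and 0.724 and 0.844 FPKM in control libraries. Both were called for model against control (limma, adjusted p = 0.000135 and 0.00145) and for BBBPH against control (0.00592 and 0.03), and neither for BBBPH against model (0.0844 and 0.199). Ccn2, a matrix protein induced by TGF-beta, averaged 2.92 FPKM in BBBPH, 5.10 in model and 4.63 in control libraries. It was lower under BBBPH than in the model (limma, adjusted p = 0.0186) and than in control libraries (0.0415), and was not called for model against control (0.678). Tgfbr2 and Smad4 went the other way from the collagens, lower in model than control libraries (limma, adjusted p = 0.0321 and 0.0313) and higher under BBBPH than in the model (0.0347 and 0.0487). Collagen receptors had 5 of 12 tested, with Cd44 and Lair1 higher in model than control libraries (limma, adjusted p = 0.00584 and 0.0493) and Cd44 lower under BBBPH than in the model (0.0155; medians 0.19 and -0.05). Itga1, an integrin chain that binds collagen, averaged 4.87 FPKM in BBBPH, 4.91 in model and 4.18 in control libraries and was not called (limma, adjusted p = 0.0886 for model against control).

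Within groups, members tended to be high or low in the same library. This order was not counted over all genes, so it is not shown to be particular to the members. Over the 30 members with a group mean of at least 0.5 FPKM, model 1_4 was the highest model library for 19 and model 3_4 the lowest for 18. BBBPH 3_4 was lowest of its group for 17, and control 2_1 highest for 14 and control 2_2 lowest for 15. Without model 1_4 and model 3_4, 12 members were called for BBBPH against model, 11 for model against control and 6 for BBBPH against control. The share of all genes called in that fit is not given, so these counts are no result about the members. Summed neutrophil markers also varied by library, from 7.04 to 146 FPKM (BBBPH 2_2) in BBBPH, 13.3 to 81.9 (model 1_4) in model and 2.96 to 39.3 (control 2_1) in control libraries. Of these 11 markers 5 were tested, and 2 were higher in model than control libraries, beside 29.9% of all genes tested.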

How the data were processed

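Per the labels' protocols, the 15 liver RNA samples were isolated with TRIzol, and libraries were built with the VAHTS Universal V6 kit, with no strand setting stated. The values are FPKM per gene and library as deposited by the authors. The genome build was mm10, and fastp, HISAT2, DESeq2 and HTSeq are named, per the submitters' processing notes. Versions, settings and annotation are not given in the sources used here. The series table and the single files held equal values (largest difference 0). Libraries were grouped by their labels.

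The 9575 of 17527 genes that averaged at least 1 FPKM entered a fit with limma 3.58.1 (R 4.3.3) on log2(FPKM + 1), with 3 group means over all 15 libraries, eBayes with trend, 2-sided p-values and Benjamini-Hochberg adjustment over all genes tested within each comparison. Calls were made at an adjusted p under 0.05. Fragment counts were recovered from the FPKM: for 15232 genes, 100.0% of values lay within 0.02 of a whole number, and voom on these counts was an alternative. Depth was 35395712 to 39624160 fragments, which sets the precision of low genes. Positions come from GENCODE M21 (GRCm38).

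The members, 5 pathway lists and 10 marker lists were chosen with earlier results of these data known. Values per library are given for Col1a1, Col3a1, Mmp12, Timp1 and every member called in model against control or BBBPH against model. Other members with a mean of 1 FPKM, members below it with a group mean of at least 0.5 FPKM, and the 3 genes with the smallest adjusted p from each pathway list are named with their means and tests. Same-numbered libraries of different groups (8 pairs) had residual correlations from -0.33 to 0.02. Such pairs span groups, so they cannot show whether libraries of a group share a block. As the meaning of the numbers is not stated, the main fit used no block. Numbers starting with 1 occur among control and model libraries and not among BBBPH libraries. Alternatives were a pseudocount of 0.1, no filter or one at 0.3 FPKM, TPM, median-ratio scaling, robust eBayes, 2-group fits, blocks of replicate numbers, voom, and libraries left out. Voom on genes with a mean of at least 10 fragments, leaving out model 1_4 with model 3_4, and leave-outs with no filter were chosen after seeing the data.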

Additional observations from a re-analysis of the deposited data

Results flagged for a closer look

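In 7 of 135 sets of 5 libraries checked, the highest or lowest library lay apart from the rest of its group by more than 0.71 of the group's range, where chance gives about 1 in 20. Model 1_4 was high for Cd44, at 6.63 FPKM with the next at 4.35, and for Timp3, at 12.7 FPKM with the next at 9.38. Model 2_1 was high for Col16a1, at 0.742 FPKM against 0.458, and model 1_1 was low for Mmp2, at 0.685 FPKM against 1.09 for the next. Among control libraries, control 2_1, the library with skeletal muscle markers, was high for Col1a1 at 1.24 FPKM with the next at 0.635, control 3_4 for Mmp14 at 14.0 FPKM with the next at 10.7, and control 1_1 for Timp1 at 0.250 FPKM with the next at 0.0913. Without control 2_1 the Col1a1 calls for model against control and BBBPH against model kept their side of the threshold, and without control 3_4 Mmp14 was called higher in model than control libraries (limma, adjusted p = 0.0446).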

How the results depend on the processing

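For model against control, 11 members were called, and the count was 24 with no filter, 18 with a filter at 0.3 FPKM, 22 with voom at a mean of 10 fragments, and 11 to 13 with each library left out. For BBBPH against model, 13 were called, with 22 under no filter, 21 under voom at 10 fragments, and 11 to 13 with libraries left out. More members are tested under these filters (69, 31 and 47). For BBBPH against control, 4 were called, with 2 under median-ratio scaling and 2 to 5 with libraries left out. The lowest counts came without control 1_1, 1_5 or 2_2 or BBBPH 2_2 or 3_2. With no filter, Mmp14 lost this call (limma, adjusted p = 0.0654), while Col4a3 (0.0277) and Col6a6 (0.0395) were called. Voom at 10 fragments also called Col4a3 (adjusted p = 0.0403) and Col6a3 (0.0293). The replicate numbers, whose libraries did not pair (0 of 10 correlated best with their own number), gave as a whole-number block 10, 1 and 0 calls in these 3 comparisons (limma; 12, 9 and 6 members at an unadjusted p under 0.05), where few libraries share a number. Their first digit as a block gave 11, 11 and 3. Shares of all genes called are not given for these blocks, TPM, median-ratio scaling, robust eBayes, voom on the 9575 genes or libraries left out. Counts under these settings are therefore no result about the members. The first-digit block ended the calls of Col4a2 and Col27a1 for BBBPH against model (limma, adjusted p = 0.108 and 0.0816) and of Timp3 and Mmp14 for BBBPH against control (0.128 and 0.0674), where Mmp12 became called (0.0416). Libraries of different groups with the same first digit had residual correlations from -0.33 to 0.44 (23 pairs, median -0.01), and in 4 of these the correlation was over 0.1. TPM, robust eBayes and voom on the 9575 genes gave 11, 13 and 4, as reported. Where a fold change turned its sign, it was called neither as reported nor under that setting. For model against control this was Col18a1 (-0.04, median-ratio scaling). For BBBPH against control, median-ratio scaling gave Col14a1 -0.06, Col3a1 -0.09, Col6a1 -0.10, Mmp19 -0.02 and Timp2 -0.10, and the whole-number block gave Col3a1 -0.02, Col6a1 -0.08 and Mmp15 -0.01 (0.29 as reported). With libraries left out, Col18a1 gave -0.05 to 0.04, including 0.00, 0.01 and 0.02, Col3a1 -0.04 to 0.15 and Col6a1 -0.02 to 0.06, and without the 3 libraries that stood apart Col18a1 gave 0.04 and Col3a1 -0.01. The causes were not tested. No cell counts or histology were used, intervals and fragment counts cover counting error and library spread alone, and 14 of the 62 members with recovered fragments had under 20 in at least 1 group, Timp1 and Mmp13 among them, and are limited by depth.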
